A study of Mus musculus with 4 samples.

Results

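The fibrillar collagen genes examined here were *Col1a1*, *Col1a2*, *Col3a1*, *Col5a1*, *Col5a2*, *Col5a3*, *Col11a1*, *Col11a2*, *Col2a1* and *Col24a1*, which are 10 of the 22359 protein-coding genes of the annotation. A Runx2 peak was given to a gene when it overlapped, by at least 1 bp, the gene body widened by 20 kb on each side, whatever its score. The 10 windows held 41 of the 25457 peaks of day 0. They held 137 of the 60596 peaks of day 9 and 88 of the 40330 of day 28. When peaks that overlapped between days were merged, these became 135 of 67703 regions, and no peak was shared by 2 of the windows. *Col27a1*, another fibrillar collagen gene, was not among the 10 and is described with the other collagen genes.

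Runx2 occupancy was mapped by ChIP-Seq in MC3T3-E1 cells (subclone 4), a preosteoblast line from mouse calvaria with the strain label C57BL/6, using the Runx2 antibody M70. Cells were taken at day 0 while proliferating, at day 9 while depositing matrix and at day 28 while mineralizing. Differentiation was induced with ascorbic acid and beta-glycerophosphate. Biological replicates of each day were pooled before peaks were called against input DNA from day 9 cells, so that each day has 1 peak list. Differences between days therefore have no replicate error and were not tested, and all cells come from 1 clonal line. The lists hold no read counts. The pooled raw reads were most numerous at day 0, the day with the shortest list, and fewest at day 28.

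Fibrillar collagens assemble into the fibrils that give bone, cartilage and skin their tensile strength. Type I collagen is the main protein of bone matrix, types III and V assemble with it, and types II and XI form the fibrils of cartilage. Runx2 is a transcription factor required for osteoblast differentiation, and Runx proteins bind the core sequence TGTGGT.

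The sequences below show this core where it lay within 50 bases of the centre of a day 9 peak. For each gene the highest-scoring such peak was used, and *Col11a1* had none. The 50 bases on each side of the centre are printed from mm9 (NCBIM37) on the strand of the gene, 5′ to 3′, with the core in capitals, as TGTGGT or as its reverse complement ACCACA.
Col1a1 (chr11:94808804-94808903, plus strand): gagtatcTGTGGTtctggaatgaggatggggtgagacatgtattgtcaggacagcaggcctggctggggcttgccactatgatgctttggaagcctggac
Col1a2 (chr6:4474534-4474633, plus strand): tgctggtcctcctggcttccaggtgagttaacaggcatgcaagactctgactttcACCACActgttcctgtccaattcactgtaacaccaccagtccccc
Col3a1 (chr1:45370992-45371091, plus strand): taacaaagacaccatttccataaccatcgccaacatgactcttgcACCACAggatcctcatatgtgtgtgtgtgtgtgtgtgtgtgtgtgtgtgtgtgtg
Col5a1 (chr2:27785076-27785175, plus strand): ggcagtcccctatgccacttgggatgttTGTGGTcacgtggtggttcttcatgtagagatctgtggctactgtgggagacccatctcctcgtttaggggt
Col5a2 (chr1:45563747-45563846, minus strand): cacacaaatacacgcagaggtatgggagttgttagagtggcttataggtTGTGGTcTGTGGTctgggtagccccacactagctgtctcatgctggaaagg
Col5a3 (chr9:20565593-20565692, minus strand): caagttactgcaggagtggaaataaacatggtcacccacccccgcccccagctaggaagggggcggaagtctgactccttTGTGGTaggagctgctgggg
Col11a2 (chr17:34166194-34166293, plus strand): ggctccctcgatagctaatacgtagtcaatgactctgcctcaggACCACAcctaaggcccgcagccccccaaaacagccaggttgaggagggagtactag
Col2a1 (chr15:97825901-97826000, minus strand): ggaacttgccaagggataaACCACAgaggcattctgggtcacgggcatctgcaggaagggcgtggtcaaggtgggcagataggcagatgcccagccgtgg
Col24a1 (chr3:144994800-144994899, plus strand): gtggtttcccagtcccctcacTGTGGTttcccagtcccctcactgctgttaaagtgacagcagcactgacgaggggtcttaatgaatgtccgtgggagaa

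The *Col5a2* sequence, from an upstream peak, held 2 copies of the core separated by a single base, and each of the other 8 sequences held 1 copy. The peaks behind them ranged widely in rank. Ranks are given as the percentile of a peak's MACS score within the list of its own day, because scores depend on depth and do not compare across days. A region takes the percentile of its highest-scoring peak of the day, and sets of 3 values without days are in the order day 0, day 9 and day 28. The *Col1a1* peak in intron 38 and the *Col5a3* peak downstream of the gene both had percentile 97.4 at day 9. The *Col1a2* peak in intron 28 had percentile 0.566. The *Col11a2* peak, at percentile 42.1, lay 10.1 kb upstream of the gene start and nearest the start site of *H2-Ke6*.

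Peak numbers differed widely among the 10 genes. *Col5a1*, which encodes the alpha 1 chain of type V collagen, had 8 peaks in proliferating cells (day 0), 43 at day 9 and 18 in mineralizing cells (day 28). *Col1a1* had 8, 22 and 13, and *Col11a2* had 5, 21 and 10. *Col5a1* and *Col1a1* together held 47.4% of the day 9 peaks of the 10 windows. At the other end, *Col3a1* had 1 peak on each day, *Col5a2* had 0, 2 and 2, and *Col11a1* had 1, 1 and 3.

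A peak was present for 9 of 10 genes at day 0, where 65.0% of all genes had one, the exception being *Col5a2*. All 10 genes had a peak at day 9, against 77.0% of all genes, and all 10 at day 28, against 71.2%. All 10 windows were longer than the median window of all genes, 55.4 kb, so counts were also expressed per 100 kb. Over days 0, 9 and 28 the medians of the 10 genes were 4.96, 10.6 and 7.73 peaks per 100 kb, and the medians of all genes were 1.69, 3.49 and 2.33. At day 9, 7 of the 10 genes lay above the all-gene median, and *Col3a1*, *Col5a2* and *Col11a1* lay below it. At day 0, 6 lay above it, and *Col24a1* was also below, at 1.34 peaks per 100 kb. *Col1a1* had 38.7 peaks per 100 kb at day 9, at percentile 100.0 of all genes after rounding. *Col11a1* had 0.434 peaks per 100 kb at day 9, at percentile 23.8, over a gene body of 190 kb.

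**Figure D1:**
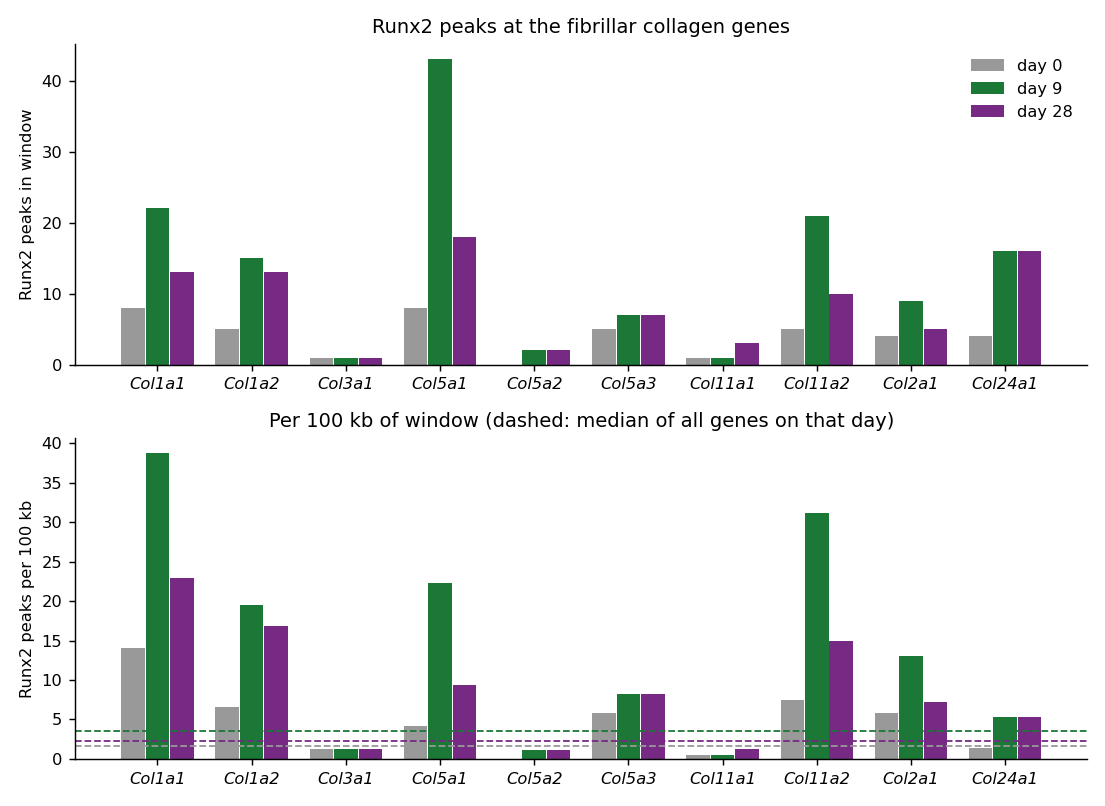
Runx2 peaks in the window of each fibrillar collagen gene (upper panel, number of peaks) and per 100 kb of window (lower panel) at days 0, 9 and 28, with dashed lines in the lower panel at the median of all genes on the same day. *Col5a1* reaches 43 peaks at day 9, and in peaks per 100 kb *Col3a1*, *Col5a2* and *Col11a1* lie below the dashed line of each day. *Col24a1* also lies below it at day 0.

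Peaks lay over most of *Col1a1* and at separated sites of *Col1a2*. *Col1a1* (ENSMUSG00000001506, chr11:94797538-94814356, plus strand) encodes the alpha 1 chain. Its gene body is 16.8 kb long, and peaks covered 74.1%, 84.3% and 77.5% of it over the successive days. The medians over all genes were 0%, 1.49% and 1.11%. Most of this cover came from 1 region of 11341 bp (chr11:94801724-94813064) that held peaks on all days, and only 6 of the 67703 regions of the series were wider. A second region (chr11:94797008-94800028) lay over the start site and intron 1, with percentiles of 73.0, 88.0 and 88.3 in the order of the days.

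Upstream of *Col1a1*, 3 regions held peaks on all days and reached the score of 3100 at day 9. They were centred 19.6 kb, 7.19 kb and 2.07 kb before the start site. The farthest (chr11:94776869-94778977) had percentiles of 69.4, 97.4 and 82.0 at days 0, 9 and 28, and the nearest (chr11:94794039-94796894) had 82.2, 97.4 and 93.3. The score of 3100 was shared by 2699 day 9 peaks, all at percentile 97.4, and these have no order among themselves. The region at 7.19 kb (chr11:94789862-94790834) had percentiles of 58.3, 97.4 and 97.8. It held no copy of TGTGGT. Downstream, a region centred 21.9 kb after the start (chr11:94818673-94820286) held peaks on all days, with percentiles of 68.6, 80.6 and 66.4. The remaining 9 regions lacked a peak on at least 1 day, and the highest of them at day 9, over the 3′ end of the gene (chr11:94814221-94815656), had percentile 79.4. Of the 15 regions in the *Col1a1* window, 7 lay nearer the start site of another gene (*Gm17329*, *Hils1* or *Sgca*) than that of *Col1a1*, the 11341 bp region among them, because *Gm17329* starts near the 3′ end of *Col1a1*.

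*Col1a2* (ENSMUSG00000029661, chr6:4454814-4491543, plus strand) encodes the alpha 2 chain, which joins the alpha 1 chain in the type I trimer. It had 5, 15 and 13 peaks in 14 regions, all of them nearest the start of a *Col1a2* transcript. The annotated gene start belongs to a transcript that begins 679 bp before the longest one. The region over it (chr6:4454669-4456638) had the highest percentile of the window on each day, with 73.7, 87.6 and 88.7, and no copy of TGTGGT. Its peaks of days 0 and 9 began 267 bp and 247 bp after the gene start, and the day 28 peak overlapped it. A region centred 15.5 kb upstream (chr6:4438204-4440417) also held peaks on all days, with percentiles of 60.3, 66.0 and 66.4. A far upstream enhancer of *Col1a2* is known in mesenchymal cells, and no coordinates of it were compared here. Inside the gene, 3 further regions held peaks on all days. The region in intron 1 (chr6:4456761-4458115) had percentiles of 53.0, 52.8 and 65.4. The widest, centred in intron 19 (chr6:4469197-4471704), had 68.5, 56.3 and 60.0, and the region in intron 36 (chr6:4480707-4481651) had 4.02, 30.8 and 32.5. The 9 regions without a day 0 peak ranked no higher than percentile 61.9 at day 9. Peaks covered 17.0% of the *Col1a2* gene body at day 9, against 84.3% for *Col1a1*.

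**Figure D2:**
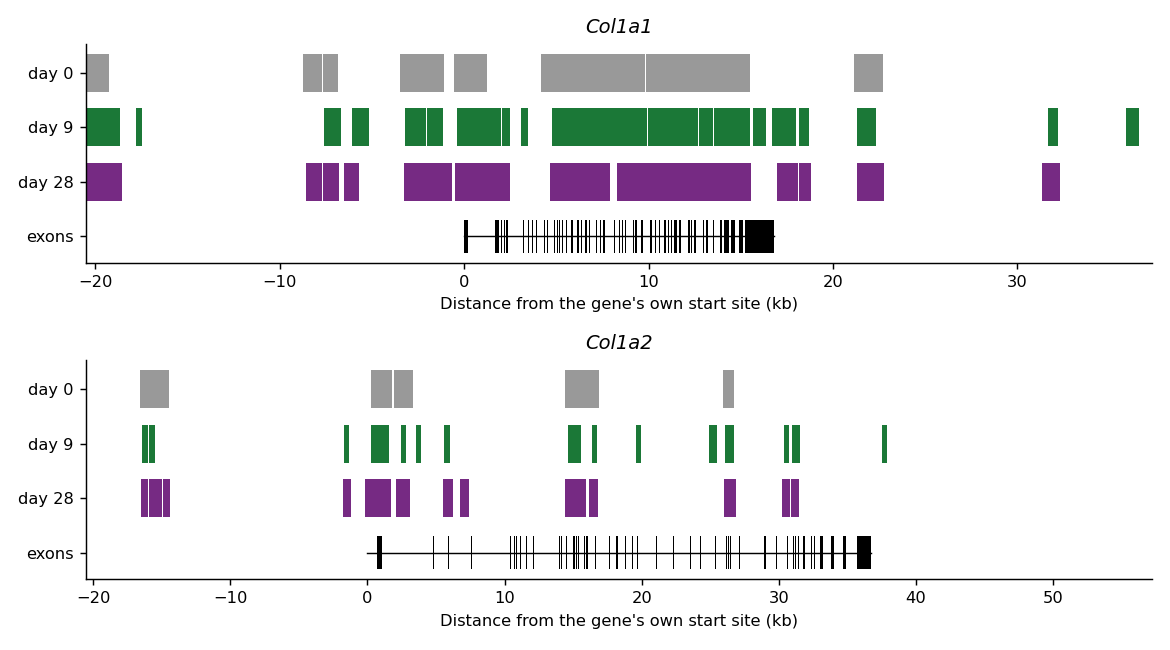
Runx2 peaks (blocks, actual width) at days 0, 9 and 28 and exons of the longest coding transcript at *Col1a1* and *Col1a2*, by distance from the gene's own start site in kb. Blocks cover most of *Col1a1* on each day, whereas those at *Col1a2* are separated.

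*Col3a1* (ENSMUSG00000026043, chr1:45368383-45406551, plus strand) encodes the chain of type III collagen. Its single region (chr1:45370647-45371313) lay in intron 1, centred 2.60 kb after the start site, and held a peak on each day. Its percentiles were 27.4, 55.9 and 56.6. *Col3a1* and *Col1a2* have windows of 78.2 kb and 76.7 kb, yet held 1 and 14 regions.

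The type V genes differed widely in number of peaks. *Col5a1* (ENSMUSG00000026837, chr2:27741945-27895034, plus strand) had 38 regions, all nearest the start of a *Col5a1* transcript. This was not always the gene start. A region in intron 54 lay 131 kb after the gene start but 385 bp from a transcript start. Among the regions, 12 were in intron 1, 7 in intron 4 and 6 upstream. The region over the start site (chr2:27740966-27745498) was 4533 bp wide, with percentiles of 79.9, 91.9 and 94.6 at days 0, 9 and 28. A region 11.8 kb upstream (chr2:27729124-27731223) had percentiles of 56.3, 97.4 and 89.4. A region in intron 1 (chr2:27745968-27749054) ranked highest at day 0, with percentiles of 90.5, 85.6 and 62.9. Of the 38 regions, 19 held a peak at day 9 alone.

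*Col5a2* (ENSMUSG00000026042, chr1:45431166-45560127, minus strand) encodes the alpha 2 chain that pairs with the product of *Col5a1*. It had 4 regions in a window of 169 kb, none with a peak at day 0 and none with peaks on more than 1 day. The region at its start (chr1:45559089-45560105) held a peak at day 28 alone, at percentile 24.6, and its highest rank was percentile 52.4 for a day 9 peak in intron 6. *Col5a3* (ENSMUSG00000004098, chr9:20574494-20619511, minus strand) had 9 regions, 6 of them nearer the start site of *Olfm2* or *Rdh8*. Its start-site region (chr9:20618916-20619934) had percentiles of 13.6, 64.3 and 53.2. The highest-ranked region of the window (chr9:20565095-20566274) lay beyond the gene's 3′ end, nearest *Olfm2*, with percentiles of 84.9, 97.4 and 94.7.

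**Figure D3:**
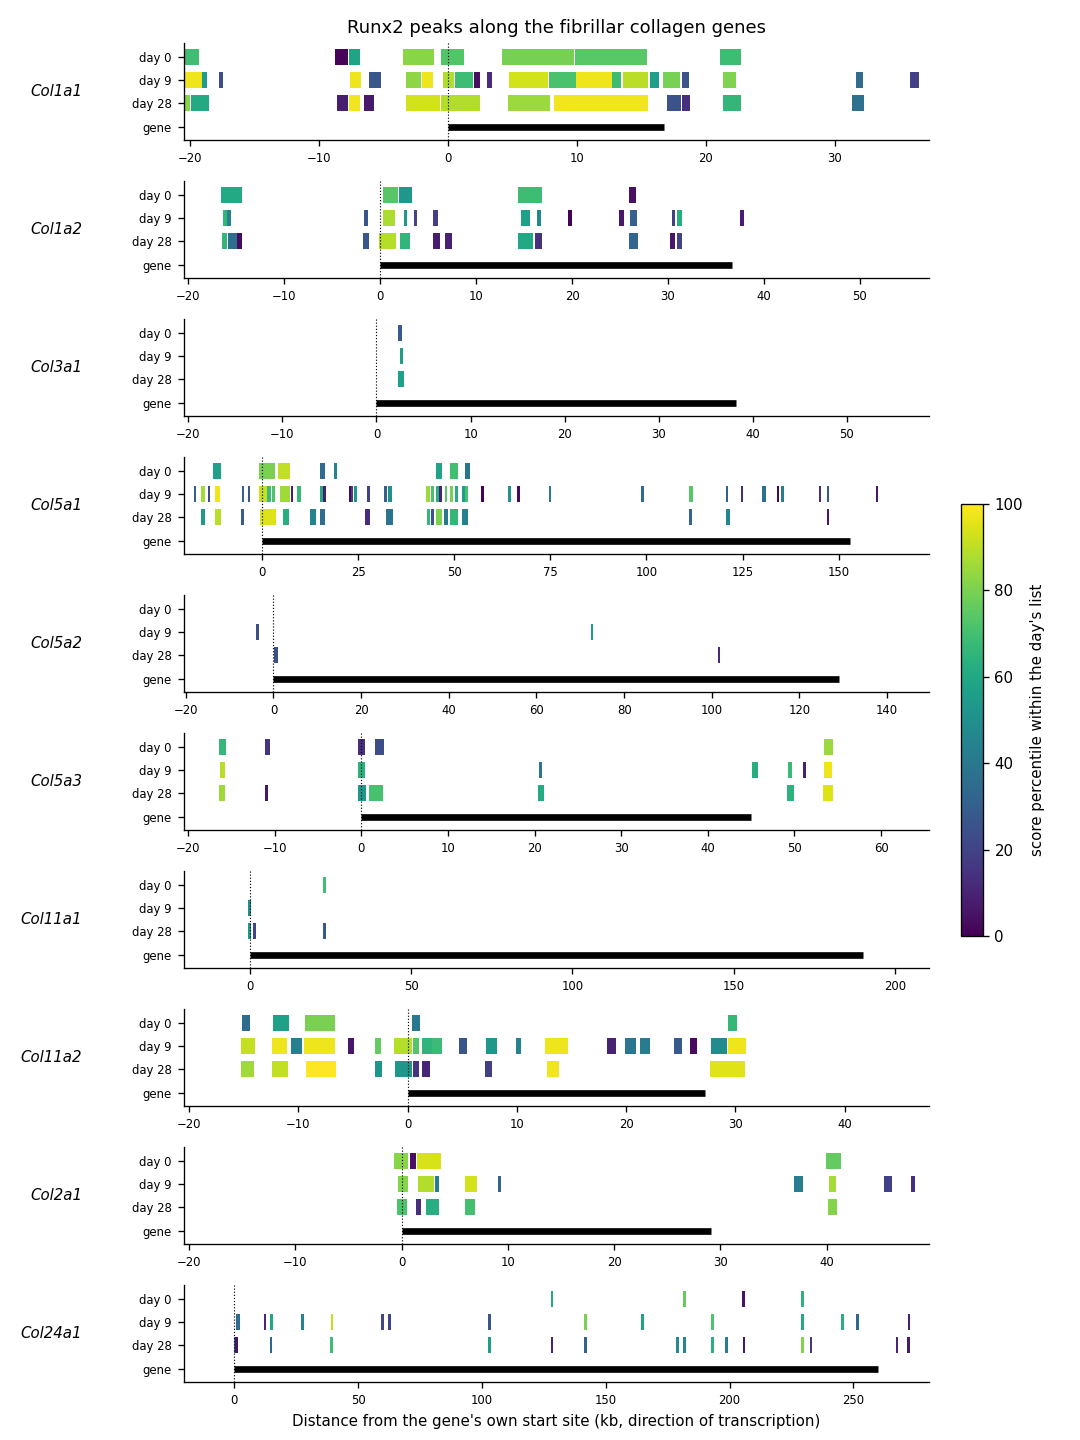
Runx2 peaks along the 10 fibrillar collagen genes at days 0, 9 and 28, by distance from each gene's own start site in kb in the direction of transcription. Blocks are coloured by score percentile within the day's list and narrow peaks are widened to stay visible; *Col5a1* has 38 regions, *Col3a1* has 1.

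The type XI genes also contrasted. *Col11a1* (ENSMUSG00000027966, chr3:113733458-113923636, plus strand) had 3 regions in a window of 230 kb. The region over its start site (chr3:113733028-113733729) held peaks at day 9, with percentile 49.6, and at day 28, with percentile 53.2. A region in intron 1, centred 23.2 kb after the start, held peaks at day 0 and day 28 at percentiles 69.4 and 28.0. *Col11a2* (ENSMUSG00000024330, chr17:34176382-34203630, plus strand) had 19 regions in 67.2 kb. Of these, 5 lay nearer the start of *Ring1*, *H2-Ke6*, *Slc39a7* or *Rxrb*, in a gene-dense stretch. Peaks covered 2.57%, 41.4% and 13.0% of the *Col11a2* gene body. The longest of its day 9 peaks with the score of 3100 was in an upstream region (chr17:34166902-34169820) nearest *Slc39a7*, which had percentiles of 79.7, 97.4 and 99.8. Its region centred in intron 20 (chr17:34188964-34191081) had no peak at day 0 and percentiles of 97.4 at day 9 and 97.8 at day 28. The start-site region (chr17:34175093-34177518) had percentiles of 40.1, 89.0 and 53.3. Its day 0 peak lay in intron 1, 436 bp from the start site, and the ranks at days 9 and 28 came from peaks over the start. The intron 1 peaks of this region at days 9 and 28 had percentiles of 73.0 and 15.4.

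*Col2a1* (ENSMUSG00000022483, chr15:97806033-97835155, minus strand) encodes the chain of type II collagen, the main collagen of cartilage. It had 4, 9 and 5 peaks in 8 regions. The start-site region (chr15:97834539-97835905) had percentiles of 82.3, 81.9 and 71.8. A region centred in intron 1 (chr15:97831479-97834403) had the highest rank at day 0, percentile 94.0, and stood at 88.5 and 62.7 at days 9 and 28. Intron 1 of *Col2a1* is known to hold a Sox9-dependent enhancer active in chondrocytes, whose position was not compared here. A region in intron 7 (chr15:97828081-97829174) had no day 0 peak and percentiles of 93.3 and 70.3 at days 9 and 28. The region in intron 11 (chr15:97825783-97826119), from which the printed *Col2a1* sequence comes, held a peak at day 9 alone, at percentile 32.0. The remaining 4 regions lay downstream of the gene and nearest *Tmem106c*.

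*Col24a1* (ENSMUSG00000028197, chr3:144955436-145214975, plus strand), the longest of the 10 at 260 kb, had 24 regions spread along its introns. At day 9 its peaks numbered 5.34 per 100 kb, at percentile 63.6 of all genes. Only 1 region held peaks on all days (chr3:145184437-145185590, in intron 53), with percentiles of 64.8, 60.2 and 81.2. The highest rank at day 9 was percentile 90.9, in intron 7 (chr3:144994298-144995262), a region with no day 0 peak. The region over the *Col24a1* start site (chr3:144955218-144956036) held a peak at day 28 alone, at percentile 44.5. *Znhit6* was the nearest gene for 13 of its regions.

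**Figure D4:**
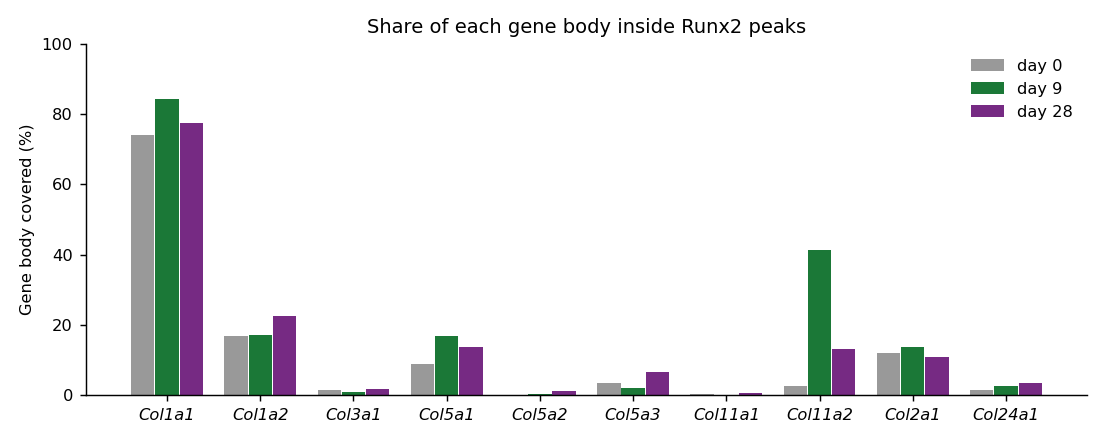
Percentage of each gene body inside Runx2 peaks at days 0, 9 and 28. *Col1a1* stands at 74.1% to 84.3%, and *Col11a2* at 2.57%, 41.4% and 13.0%.

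A peak within 1 kb of the annotated gene start was present for 6, 8 and 9 of the 10 genes in the order of the days. The shares of all genes were 41.5%, 50.8% and 48.9%. The gene without one at day 28 was *Col3a1*.

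By the days on which they held peaks, 31 of the 135 regions (23.0%, exact binomial 95% interval 16.2 to 31.0) were occupied on all days, against 27.4% of all regions. A further 33 held peaks at days 9 and 28 (24.4%, 17.5 to 32.6), against 21.1%, and 53 at day 9 alone (39.3%, 31.0 to 48.0), against 34.5%. Day 28 alone accounted for 10 regions (7.41%, 3.61 to 13.2), against 7.59%. For these clusters the share of all regions lay inside the interval, which covers counting error only. Days 0 and 28 without day 9 accounted for 7 regions (5.19%, 2.11 to 10.4), against 2.06%. Day 0 alone accounted for 1 region, in intron 1 of *Col5a1*, against 5.60% of all regions (0.741%, 0.0188 to 4.06). Days 0 and 9 accounted for 0 regions, which allows up to 2.70%, against 1.69%. The share of all regions thus lay just below the interval for days 0 and 28 and above it for day 0 alone, among 7 such intervals. The intervals treat regions as independent, although 38 of the 135 were at *Col5a1* and 24 at *Col24a1*. Of the 7 regions of days 0 and 28, 3 were at *Col24a1* and 2 at *Col5a3*. The windows were also built around gene bodies, whereas all regions include intergenic ones. Together 18 regions lacked a day 9 peak (13.3%, 8.10 to 20.3), against 15.3% of all regions, and 8 of the 18 were at *Col24a1*.

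A percentile also depends on the length of its list, and the lists differ in length, so a difference in percentile between days does not measure a change in occupancy and is given only beside that of all regions. In the regions occupied on all days, the percentile was higher at day 9 than at day 0 in 25 of 31, against 75.5% of all such regions. It was higher at day 28 than at day 9 in 13 of 31, against 33.4%. The median percentile of the 31 regions took the values 66.6, 87.6 and 81.2. Over all 18584 such regions it was 59.8, 79.5 and 73.2.

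**Figure D5:**
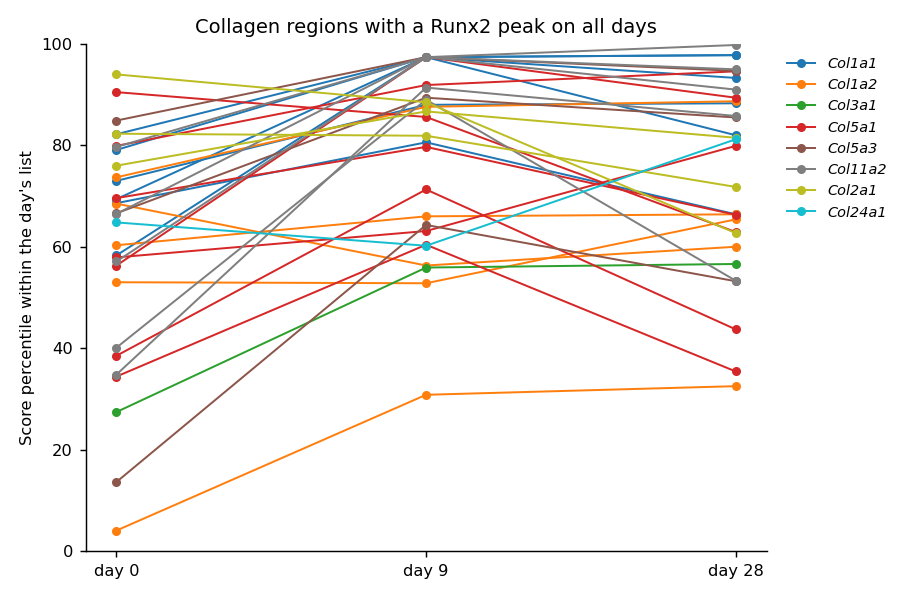
Score percentile within the day's list at days 0, 9 and 28 for the 31 collagen regions with a Runx2 peak on all days, 1 line per region, coloured by gene. The median goes from 66.6 to 87.6 and 81.2, and several regions meet at 97.4, the percentile of the tied score of 3100. Percentiles of different days come from lists of different length.

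By peak centre, introns held 85 of the 137 day 9 peaks (62.0%, 53.4 to 70.2), against 42.9% of all day 9 peaks. Promoters, from 1000 bp before to 150 bp after a start site and outside exons and introns, held 4 (2.92%, 0.801 to 7.31), against 4.52%. Windows built around gene bodies favour introns, so these shares describe the windows rather than compare them with the genome.

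TGTGGT lay within 50 bp of the centre of 5 of 41 peaks at day 0 (12.2%, 4.08 to 26.2), against 15.9% of all peaks. At day 9 it did so in 25 of 137 (18.2%, 12.2 to 25.7), against 25.2%, and at day 28 in 17 of 88 (19.3%, 11.7 to 29.1), against 20.7%. In windows of the same size centred 500 bp away, the core was present in 12.2%, 4.38% and 7.39% of those around collagen peaks, and in 6.61%, 7.25% and 6.93% of those around all peaks. At day 0 the collagen share was the same at the centre and at 500 bp, from 5 peaks and 10 flanking windows. The centre is the midpoint of a peak, not its summit. Windows 500 bp away lie inside the wider peaks, such as a day 0 *Col1a1* peak of 5622 bp. The comparison therefore cannot show whether the core is centred on the site of binding. Among single genes at day 9, *Col24a1* had the core in 7 of 16 peaks, *Col5a1* in 7 of 43, *Col1a1* in 3 of 22 and *Col11a2* in 1 of 21. Over their whole length, the collagen regions held 1.12 copies per kb, and all regions 1.77. These values are pooled over regions, so wide regions weigh most. The core was absent from 40.0% of the collagen regions, against 36.0% of all regions.

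Genes that act on fibrillar collagen were counted in the same way. Of 24 genes for the hydroxylation, folding, processing and cross-linking of collagen, 21, 23 and 22 had a peak on the 3 days. These were 87.5%, 95.8% and 91.7%, against 65.0%, 77.0% and 71.2% of all genes. The median of the 24 genes was 6.52 peaks per 100 kb at day 9, against 10.6 for the fibrillar collagen genes and 3.49 for all genes. Their median window was 66.3 kb, against 55.4 kb for all genes. *Adamts2*, which encodes a procollagen N-proteinase, had 27 peaks at day 9, or 11.0 per 100 kb. *Serpinh1*, which encodes the collagen chaperone Hsp47, had 8, or 16.7 per 100 kb. *Adamts3* had 0 on each day. Of 33 other collagen genes, 27, 32 and 29 had a peak at days 0, 9 and 28 (81.8%, 97.0% and 87.9%). Their median window was longer, at 154 kb, and their median was 4.66 peaks per 100 kb at day 9. *Col27a1* had 5, 23 and 11 peaks, and *Col10a1*, a gene of hypertrophic chondrocytes, had 0 on each day.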

How the data were processed

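Reads were aligned by the authors to assembly mm9 (Bowtie 0.12.8). Replicates of a day were combined, and MACS 1.4.1 called peaks against day 9 input. The deposited score is derived from the MACS p-value. No list held a score under 100. It depends on depth, and the lists hold no read counts. The input was not analysed here.

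Peaks were matched to protein-coding genes of GENCODE M1 (22359 genes, 51710 transcripts), on the same assembly as mm9. Percentiles are within a list, with ties counted at their midpoint. Intervals are exact binomial (Clopper-Pearson) at 95% and cover counting error only. They treat the peaks or regions of a gene as independent. The genes, lists and rules for naming regions (the region nearest each gene's start and that with the highest day 9 rank, with further regions of *Col1a1* and *Col1a2*) were chosen with earlier results of these data known. Some further regions, and the genes named from the other lists except *Col27a1*, were named after their values were seen. Alternatives covered the score minimum, window, overlap, location and motif rules. Procedures were tested on simulated data. The software was Python 3.11.15 with the packages SciPy 1.17.1, NumPy 2.4.6 and, for figures, Matplotlib 3.10.9.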

Additional observations from a re-analysis of the deposited data

How the results depend on the processing

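Of 84 alternative values, 56 were within 1.5 times the main value, and those are not listed here. With a score of at least 200, the 10 windows held 80 peaks at day 9, 57 at day 28 and 78 regions, and the median gene body cover at day 0 was 1.83%. With a score of at least 500 they held 12, 45 and 32 peaks at days 0, 9 and 28, and 43 regions. With the 25457 top-scoring peaks of each list they held 58 peaks at day 9, 52 at day 28 and 71 regions. Gene bodies alone held 26 peaks at day 0. Totals of the whole lists are not given for the score and gene-body rules, so those counts do not compare the collagen genes with others. Counting any overlap with a promoter, its share of peaks was 24.4%, 10.9% and 18.2% at days 0, 9 and 28. With promoters placed before exons and introns it was 8.76% at day 9. The share of all peaks is not given under these rules, so these values do not compare with the share of all peaks given above. TGTGGT within 100 bp of the centre was present in 32.1% of day 9 collagen peaks, against 37.3% of all day 9 peaks. Gene body cover of single genes changed by less than 1.5 times in 18 of 29 cases with a score of at least 200. The cases that changed more included *Col11a2*, at 26.8% at day 9 and 5.88% at day 28. They also included *Col1a2*, at 9.65% at day 9 and 14.0% at day 28.

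Leaving out a replicate was not possible with 1 pooled list per day. No paired analysis was possible because each day has a single list. A peak missing from a day was not detected at that day's depth, which differed between days.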
